A study of Homo sapiens with 4 samples.

Results

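Cytosolic ribosomes are built from ribosomal RNAs and a large set of proteins, and the genes of those proteins, named RPL for the large and RPS for the small subunit, were read here in a T-cell lymphoma line after ribavirin. Members were the transcript clusters (summary rows of all probes of a transcription unit) whose symbol is RPL or RPS, an optional P, a number, and at most a final A, X or L. For a symbol with several rows, the brightest row by its mean level was used. This gave 80 members of 25847 genes, from 112 rows. There were 46 of the large subunit, 30 of the small subunit and 4 L-type paralogs (RPL3L, RPL10L, RPL39L, RPS27L).

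Hut78 is an established human cell line, derived from a cutaneous lymphoma of T cells. One group was 2 arrays of untreated cells (control), and the other was 2 arrays of cells given ribavirin, a guanosine analogue, at 50 µM for 120 h. Both groups were grown in RPMI with serum, and total RNA was hybridised to Affymetrix Human Transcriptome Arrays 2.0. Whether the arrays of a group came from separate cultures is not stated, so the p-values below reflect how far these arrays scatter, and that scatter may be technical only.

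Ribosomal protein mRNAs are among the most abundant of any growing cell, and most begin with a C followed by a run of pyrimidines, the TOP tract (terminal oligopyrimidine), through which mTORC1 and LARP1 control their translation. The cell makes the proteins in matched amounts and degrades the excess, and some free ribosomal proteins bind MDM2 and stabilise p53. L-type paralogs are retained gene copies that can take the place of the parent protein, in the best known cases in muscle or in male germ cells. An array of total RNA reads mRNA amounts, not their translation.

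The 4 arrays correlated at Pearson r = 0.998 within each group and at 0.990 to 0.991 between groups (across genes, which are not independent replicates). The background range is a group mean at or below the brightest background probe set. Of 11 T-cell markers measured, 9 lay above it in control, CD3D, CD3E and CD3G included, CD2 and CD28 lay in it, and 8 fell with ribavirin. Their summed level was 93.6 to 93.8 in control and 85.1 to 85.1 in ribavirin arrays. Of 6 B-cell markers 2 fell (CD79A and CD79B), with a summed level of 36.3 to 36.6 in control and 34.0 to 34.2 in ribavirin arrays. Of 6 epithelial markers 2 fell (CDH1, and KRT18, which was in the background range in both groups), and EPCAM differed by 0.42 (limma adjusted p = 0.073). The epithelial sums were 33.4 to 33.6 in control and 32.3 to 32.5 in ribavirin arrays. For comparison, 5.88% of all genes fell, and 10.0% of those at or above the median level of the array. In control, 6 of 7 myeloid, 8 of 8 germ cell and 5 of 5 erythroid markers were in the background range. The part of these shifts in the results below was not tested.

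With ribavirin 8 members rose, 1 fell and 71 did not pass the test (limma, Benjamini-Hochberg adjusted p under 0.05 over all 25847 genes). Over all genes 9.34% rose and 5.88% fell, or 15.2% in all, and the members' share of rises was 10.0%. At or above the median level of the array, where all but 1 of the members lie, 18.2% of genes rose and 10.0% fell. Against those genes the members had a lower share of both rises and falls. In bulk samples fewer cells of a type and less RNA per cell cannot be told apart. The 8 that rose were RPL7, RPL37, RPL26, RPL21, RPL17 and RPL6 of the large subunit and RPS27 and RPS13 of the small. The 1 that fell was RPL29. A difference of less than 1.2-fold in either direction was found for 62 of 80 members (77.5%). The share was 73.4% of all genes and 57.6% of genes at or above the median level. The median log2 difference of the members was 0.05, and it was 0.11 with each array centred on its median but -0.04 after quantile normalization. All genes had a median of -0.05. With centred arrays 13 members rose and 0 fell (over all genes 11.2% and 4.0%), and after quantile normalization 7 rose and 6 fell (7.5% and 7.72%). With genes below the median level left out, 15 rose and 4 fell (24.0% and 14.0%).

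**Figure D1:**
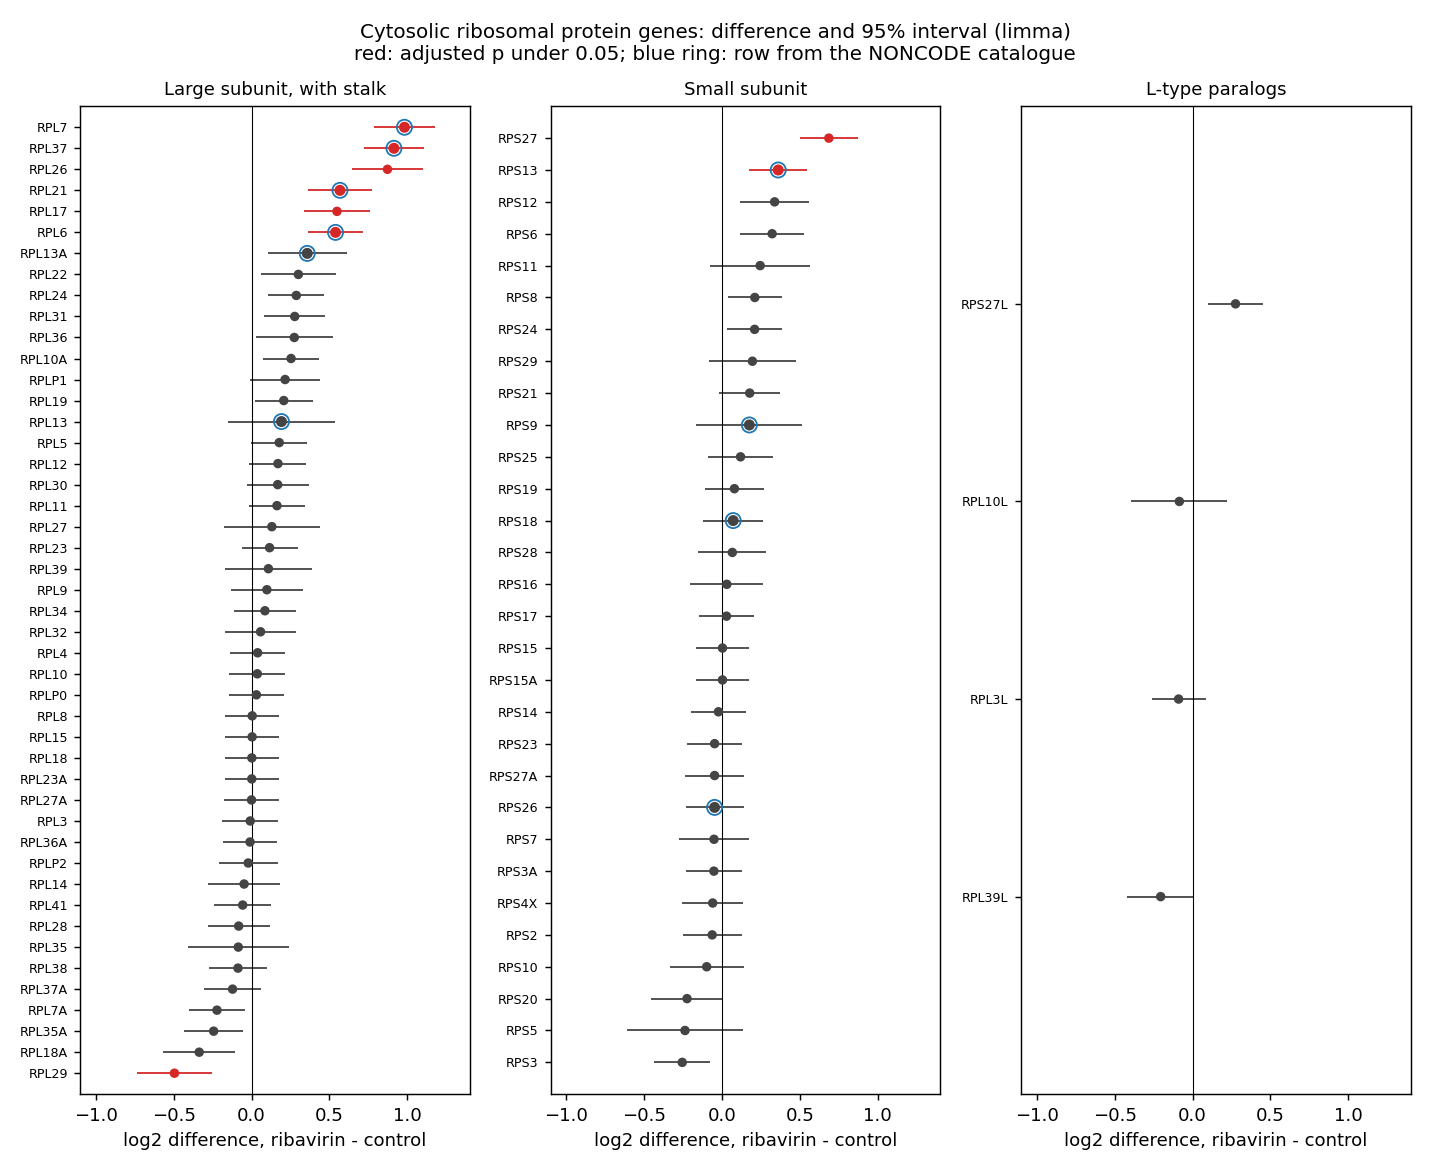
Log2 difference, ribavirin minus control, of each member with its 95% interval from limma (horizontal axis, log2 units), by subunit and for the L-type paralogs. Red points passed at an adjusted p under 0.05, and blue rings mark the 10 members read from rows of a noncoding RNA catalogue. Intervals of most members span 0, the 8 rises lie between 0.36 and 0.98, and RPL29 lies at -0.50.

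In 34 members both ribavirin arrays lay above both controls, and in 14 both lay below (over all genes 24.1% and 35.8%). That is 42.5% and 17.5% of the members. Genes at or above the median level of the array, where all but 1 of the members lie, had 41.0% above and 31.7% below, and a median log2 difference of 0.03. Of the 212 genes with a mean above 15, 11.3% rose and 10.8% fell (22.2% in all), while of the 19 members in that range 6 rose and 0 fell. In 8 and 2 of these 19 the groups were apart upward and downward, against 33.5% and 32.5% of the 212. Among the 6 rises, RPL37, RPL21, RPL6 and RPS13 were read from rows of a noncoding RNA catalogue, described below. The RefSeq rows of RPL37, RPL21 and RPL6 lay below 15 and did not pass.

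RPL26, a large subunit protein beside the exit of the nascent chain that also binds p53 mRNA, was at 15.08 and 15.20 in the control arrays and at 16.09 and 15.94 in the ribavirin arrays. Both ribavirin arrays stood well above both controls. The log2 difference was 0.87 (SE 0.09, limma adjusted p = 0.0058), a 1.83-fold rise. RPS27, a zinc-finger protein of the small subunit, was at 11.95 and 11.89 against 12.64 and 12.57. The groups did not overlap, and the log2 difference was 0.69 (SE 0.07, limma adjusted p = 0.0064). RPL17, which lines the exit tunnel, was at 15.59 and 15.72 against 16.16 and 16.24, a log2 difference of 0.55 (SE 0.08, limma adjusted p = 0.015). These 3 were read from rows named by a RefSeq mRNA, as were 70 of the 80 members.

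The other 5 rises came from rows of another kind. RPL7, RPL37, RPL21, RPL6 and RPS13, core proteins of their subunits, were each represented by a row that the deposited table credits to NONCODE, a catalogue of noncoding RNAs, as an mRNA-like noncoding transcript. In 10 members this kind of row was brighter than the RefSeq row of the gene. Of those 10 members 5 rose and 0 fell, with a median log2 difference of 0.36. Of the 70 on RefSeq rows 3 rose and 1 fell, with a median of 0.03. These medians were not computed in other scalings. Over all genes 9.34% rose and 5.88% fell. Among genes with a mean above 15, as 7 of the 10 have, 11.3% rose and 10.8% fell. The 2 sets hold different genes. On the RefSeq rows of the same 10 genes the differences ran from -0.23 (RPS26) to 0.50 (RPL7), and only RPL7 and RPS13 passed. Processed pseudogenes of ribosomal protein genes are numerous and nearly identical to the mRNA, so values of a row may include signal from such copies, which was not tested.

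RPL7, a protein of the large subunit that contacts 5S rRNA, had NONCODE row values of 10.28 and 10.24 in control and 11.19 and 11.29 in ribavirin arrays. This is a clear separation, and the log2 difference was 0.98 (SE 0.08, limma adjusted p = 0.0037). Its RefSeq row was at 7.32 and 7.33 against 7.91 and 7.74, and it also rose, by 0.50 (SE 0.08, limma adjusted p = 0.018). RPS13 had NONCODE values of 17.27 and 17.20 against 17.57 and 17.62, with a log2 difference of 0.36 (SE 0.07, limma adjusted p = 0.033, and 0.11 with an adjusted p of 0.77 after quantile normalization). Its RefSeq row gave 0.36 as well (SE 0.07, limma adjusted p = 0.029), from 14.96 and 14.90 to 15.28 and 15.30. For these 2 genes both rows showed separate groups in the same direction.

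RPL37, a small zinc-binding protein, was at 17.14 and 17.18 in control and 18.02 and 18.13 in ribavirin arrays on its NONCODE row. The log2 difference there was 0.91 (SE 0.08, limma adjusted p = 0.0041), and 0.55 (limma adjusted p = 0.17) after quantile normalization. The RefSeq row of RPL37 held 7.32 and 7.38 against 7.36 and 7.36, so the groups overlapped, and it differed by 0.01 (SE 0.07, limma adjusted p = 0.94). For this gene the call changed with the row.

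RPL6 was at 18.03 and 18.03 against 18.58 and 18.56 on its NONCODE row, a log2 difference of 0.54 (SE 0.07, limma adjusted p = 0.0093). On the RefSeq row it differed by 0.31 (SE 0.09, limma adjusted p = 0.080), from 11.70 and 11.72 to 12.12 and 11.93. The groups did not overlap on either row, but the second did not pass. RPL21 was at 15.56 and 15.62 against 16.09 and 16.22, a log2 difference of 0.57 (SE 0.08, limma adjusted p = 0.013), on a row whose ID carries chromosome 7. The gene itself is annotated on chromosome 13, and the RefSeq row there differed by 0.17 (SE 0.08, limma adjusted p = 0.22). That row was at 7.61 and 7.58 against 7.70 and 7.84. A further NONCODE row of RPL21 on chromosome 13 was at 13.88 and 14.00 against 14.34 and 14.49. It differed by 0.48, which was not tested on its own. On each of these rows of RPL21 the ribavirin arrays lay above the controls. RPL9 was the other member whose brightest row carried a chromosome (15) that is not its own (4).

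**Figure D2:**
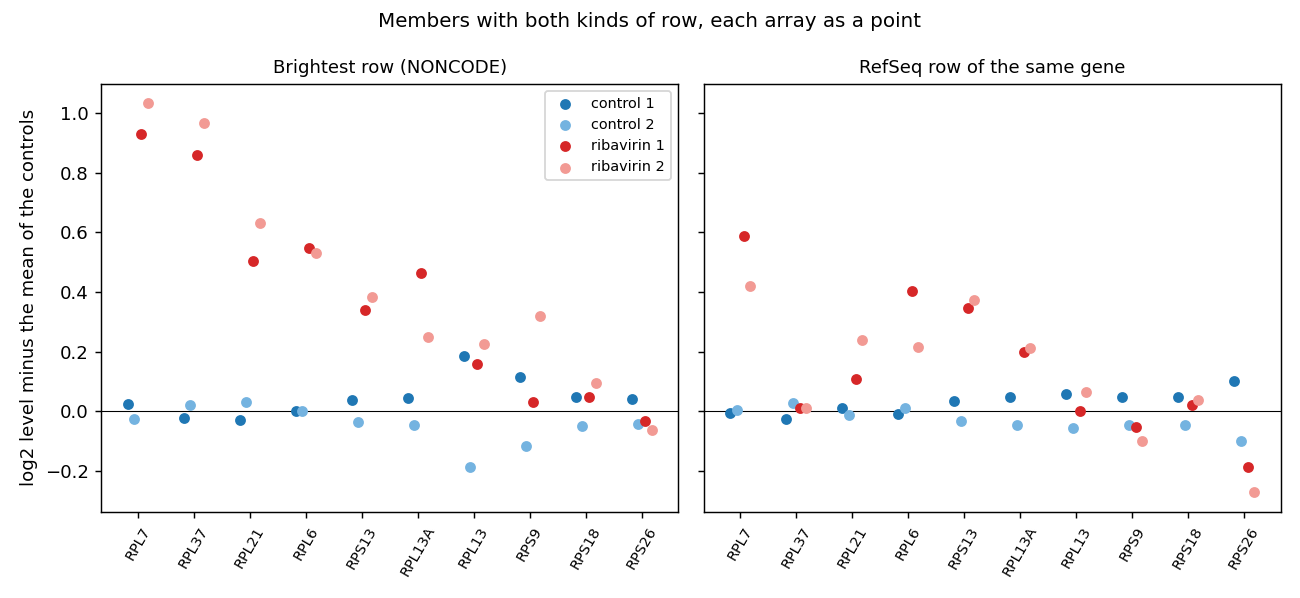
Log2 level of each array minus the mean of the 2 controls (vertical axis, log2 units) for the 10 members with both kinds of row, with the brightest row on the left and the RefSeq row of the same gene on the right. RPL7, RPS13, RPL6, RPL21 and RPL13A stand apart from the controls on both sides. RPL37 lies 0.91 above the controls on the left and 0.01 on the right.

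With the brightest RefSeq row standing for every gene, 5 members rose and 1 fell (over all genes 9.5% and 6.04%). These were RPL7, RPL26, RPL17, RPS27 and RPS13, with RPL29 as the fall, and all 6 were also among the 9 called before.

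RPL29, a small basic protein of the large subunit that also binds heparin, was at 10.98 and 10.85 in control and at 10.33 and 10.51 in ribavirin arrays. Both ribavirin arrays were below both controls, and it fell by 0.50 on the log2 scale (SE 0.10, limma adjusted p = 0.028). With each array centred on its median RPL29 missed the threshold (limma adjusted p = 0.0502).

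The number of calls moved with single arrays, for the members as for all genes. With either control array left out, limma called 0 members, and over all 25847 genes it called no more than 27. The median log2 difference of the members was 0.0644 without the first control array and 0.00523 without the second, against 0.0481 with all arrays. RPL26, RPL37, RPL7 and RPS27 passed without ribavirin replicate 1, and these 4 and RPL6 without ribavirin replicate 2. Over all genes between 1185 and 2001 passed in these fits, against 3934 with all arrays. In these fits a group of 1 array borrows its spread from the other group.

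The starts of these genes, from the RefSeq annotation of GRCh38.p14, are given here for the called members and for the paralogs and their parents; RPL7, RPL37, RPL3L and RPL39L are not shown. Each shows 10 bases before the annotated start and 20 from it, 5′ to 3′. Capitals mark the pyrimidine run from the start where that start reads C followed by at least 4 pyrimidines (C or T, on the gene's own strand only), and where a gene has several starts one with such a run was taken.
RPL26, chr17:8383174-8383203, minus strand: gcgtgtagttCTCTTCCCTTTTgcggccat
RPS27, chr1:153990752-153990781, plus strand: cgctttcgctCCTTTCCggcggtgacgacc
RPL21, chr13:27251548-27251577, plus strand: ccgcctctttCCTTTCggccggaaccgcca
RPS13, chr11:17077648-17077677, minus strand: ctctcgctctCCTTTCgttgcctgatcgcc
RPL29, chr3:51995876-51995905, minus strand: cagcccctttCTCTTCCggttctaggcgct
RPL17, chr18:49492446-49492475, minus strand: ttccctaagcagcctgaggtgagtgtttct
RPL6, chr12:112409266-112409295, minus strand: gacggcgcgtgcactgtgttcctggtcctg
RPL3, chr22:39319604-39319633, minus strand: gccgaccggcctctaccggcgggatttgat
RPL39, chrX:119791611-119791640, minus strand: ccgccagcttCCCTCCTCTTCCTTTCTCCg
RPL10, chrX:154398367-154398396, plus strand: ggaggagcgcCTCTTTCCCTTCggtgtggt
RPL10L, chr14:46651762-46651791, minus strand: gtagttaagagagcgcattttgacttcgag
RPS27L, chr15:63157458-63157487, minus strand: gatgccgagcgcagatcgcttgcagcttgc

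Of the 63 members with an annotated start in the table, 45 (71.4%) had such a start, against 5.14% of all 27305 gene symbols. The share was 25 of 35 in the large subunit without the stalk, 3 of 3 for the stalk, 17 of 23 in the small subunit and 0 of 2 for the paralogs. Both the risers RPL26 and RPS27 and the falling RPL29 carry the tract, whereas the risers RPL17 and RPL6 and the parent RPL3 do not at the starts shown. Among the 45 members with it 4 rose and 1 fell, and among the 18 without it 2 rose and 0 fell, 11.1% called in each set. Of all genes 15.2% were called, and 28.2% of those at or above the median level. The 18 include the paralogs RPL10L and RPS27L, both in the background range. The match describes the letters at an annotated start, not the start used in these cells.

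The large subunit had a median log2 difference of 0.09, with 6 rises and 1 fall among 46 members, and its median was 0.16 with centred arrays and -0.03 after quantile normalization. The small subunit had a median of 0.03, with 2 rises and 0 falls among 30 members, and 0.09 and -0.09 in the same scalings. Over all genes 9.34% rose and 5.88% fell, and at or above the median level 18.2% and 10.0%. With the RefSeq row of each gene the large subunit had 3 rises and the small 2, with medians of 0.05 and 0.02. The interquartile ranges of the main values were -0.01 to 0.24 and -0.05 to 0.19, which overlap widely. The difference between the subunits was not tested.

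The stalk proteins RPLP0, RPLP1 and RPLP2, which recruit the translation factors, did not pass. RPLP0, often used as a reference gene, was at 12.52 and 12.47 against 12.52 and 12.53, with an interval of -0.15 to 0.21 on the log2 difference. RPLP2 was at 12.17 and 12.17 against 12.19 and 12.10. In both the groups overlapped. RPLP1 was at 10.66 and 10.63 against 10.77 and 10.95, apart but with a limma adjusted p of 0.18.

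RPL5 and RPL11, which with 5S rRNA bind MDM2 and stabilise p53, differed by 0.18 (limma adjusted p = 0.17) and 0.16 (limma adjusted p = 0.21). RPL5 was at 10.74 and 10.80 against 10.94 and 10.94, and RPL11 at 8.86 and 8.81 against 9.03 and 8.97. In both genes the ribavirin arrays lay above the controls, by amounts that did not pass. RPL23, another MDM2 binder, was at 10.07 and 10.07 against 10.16 and 10.22 (limma adjusted p = 0.35). At or above the median level 18.2% of genes rose and 10.0% fell, and over all genes 9.34% and 5.88%. Of 11 genes listed for the link between free ribosomal proteins and p53, 2 rose and 0 fell. They were MDM2 (log2 difference 0.60, limma adjusted p = 0.022) and its relative MDM4 (0.53, limma adjusted p = 0.010), whereas CDKN1A, a p53 target whose control level was in the background range, differed by 0.07 (limma adjusted p = 0.68).

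RPL22, which is needed for T-cell development and is lost in some T-cell leukaemias, was at 8.80 and 8.95 against 9.24 and 9.11, with a limma adjusted p of 0.10. RPS3, which also has roles in DNA repair, was at 11.90 and 11.87 against 11.60 and 11.66, a log2 difference of -0.26 (limma adjusted p = 0.075, and 0.022 after quantile normalization). RPL13A, a protein that interferon gamma releases to silence mRNAs, was at 13.11 and 13.02 against 13.53 and 13.32 (limma adjusted p = 0.077). Those are values of its NONCODE row, and its RefSeq row differed by 0.20 (limma adjusted p = 0.13). RPS27A, made as a fusion with ubiquitin, was at 8.14 and 8.18 against 8.07 and 8.16, with overlapping groups. All but RPS27A showed separate groups, and none of the 4 passed.

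RPS6, the substrate of S6 kinase, was among the dimmest rows of the small subunit, at 4.86 and 4.88 against 5.12 and 5.26. Its control mean lay below 5.195, the mean of the brightest background probe set in control arrays, and its log2 difference was 0.32 (limma adjusted p = 0.060, and 0.035 with centred arrays). RPL31, the dimmest of the large subunit, was at 4.70 and 4.81 against 5.03 and 5.04 and likewise had a control mean in that range. The 3 dimmest of each subunit were completed by RPL36A (5.80, 5.80 against 5.80, 5.78), RPL34 (6.61, 6.73 against 6.76, 6.74) and, in the small subunit, RPS14, the gene of the 5q- syndrome (6.61, 6.57 against 6.57, 6.57), and RPS20 (7.45, 7.33 against 7.08, 7.24). Means of the members ran from 2.58 to 18.30. Rows have different probes, so this is an order of rows and not of mRNAs.

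The highest value on the scale was 19.93, and 9 genes had a mean above 19, none of them a member. The brightest members were RPL6 at 18.30 and RPS18 at 18.17. Several members were almost constant over all 4 arrays. The gap between the highest and lowest array was under 0.05 in 11 members (13.8%), against 1.49% of all genes and 8.49% of genes with a mean above 15 (a limit chosen after the values were seen).

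RPL15, a protein of the large subunit, was listed at 8.5377 in control replicate 1 and in both ribavirin arrays and at 8.53126 in control replicate 2. ACTG1, GAPDH and EEF1A1 at the top of the scale held 19.93153 on the same 3 arrays and 19.92509 on control replicate 2, which is the same step of 0.00644. RPL15 thus moved exactly as the genes at the ceiling did, at a level more than 11 units lower. RPL8 (15.85084, 15.84441, 15.85084, 15.85165), RPL18, RPS15 and RPS15A each differed exactly as the array maxima did in 3 of the 6 pairs of arrays, within 0.0001 and with pairs of equal maxima counted.

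In all, 14 members (17.5%) had at least 1 pair of arrays that differed as the array maxima did, equal pairs included, against 1.09% of all genes and 17.5% of genes with a mean above 15. RPLP0, RPL5 and RPL10 were among the 14, each with 1 such pair. RPL23A (10.24062, 10.23539, 10.23647, 10.24142) was about as constant as RPL15 without any such pair. Whether these rows could have shown a change of their mRNA was not tested. A small difference in them is not evidence that the mRNA stayed the same.

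**Figure D3:**
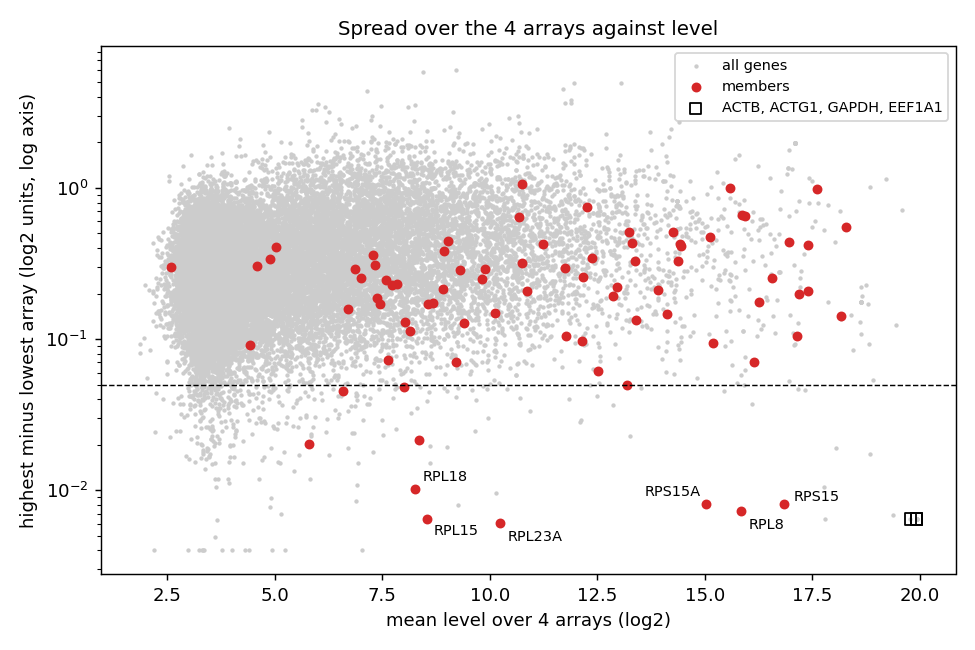
Gap between the highest and the lowest of the 4 arrays (vertical log axis, log2 units, gaps below 0.004 drawn at 0.004) against the mean level (log2) of all genes, with members in red and 4 genes at the top of the scale as squares. The dashed line marks 0.05, with 11 members under it, of which RPL15, RPL8, RPS15 and RPS15A lie near the gap of the ceiling genes although their levels are lower.

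**Figure D4:**
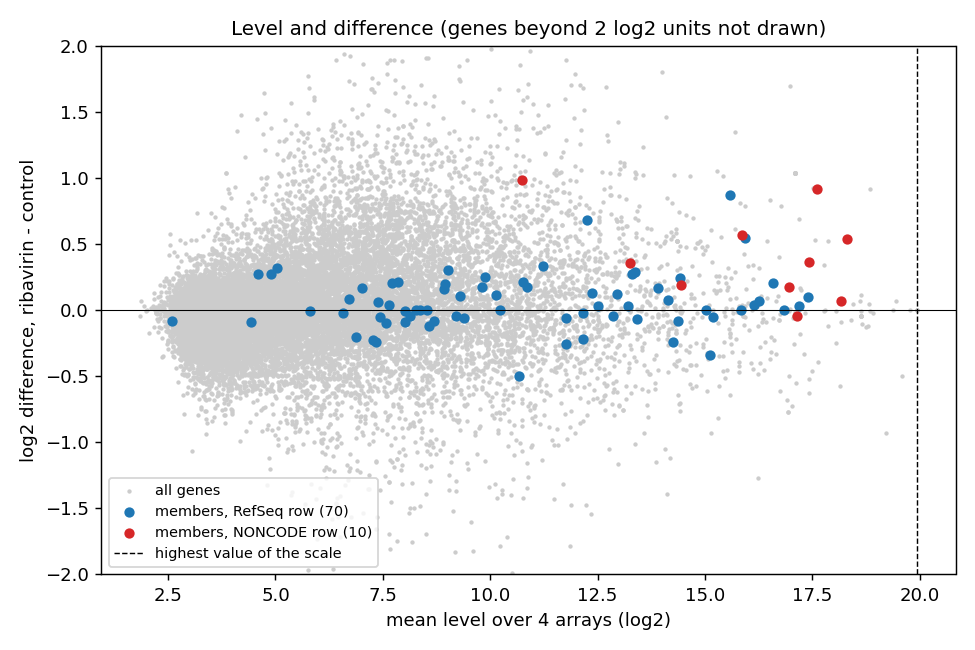
Log2 difference, ribavirin minus control, against the mean level (log2) for all genes in grey, the 70 members on RefSeq rows in blue and the 10 on NONCODE rows in red. The dashed line is the highest value of the scale, 19.93, and no member has a mean above 18.30.

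The L-type paralogs did not pass in either direction. RPS27L, which p53 can induce and which resembles RPS27, was at 4.46 and 4.45 in control and 4.71 and 4.75 in ribavirin arrays. Both ribavirin arrays were higher, all values were in the background range, and the log2 difference was 0.28 (interval 0.10 to 0.45, limma adjusted p = 0.059). It passed with centred arrays (limma adjusted p = 0.040) and after quantile normalization (0.042).

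RPL39L, which replaces RPL39 in the exit tunnel in male germ cells, was at 6.97 and 6.98 against 6.85 and 6.69. This was the only paralog above the background range, and both ribavirin arrays were below the controls. The log2 difference was -0.21 (interval -0.42 to 0.01, limma adjusted p = 0.18, and 0.047 after quantile normalization). RPL39 itself was at 9.293 and 9.198 against 9.486 and 9.221, with overlapping groups. RPL39L minus RPL39 went from -2.32 and -2.22 to -2.64 and -2.53, a shift of -0.31 that was not tested. RPS27L minus RPS27 shifted further, by -0.41. The shift was -0.12 for RPL10L minus RPL10 and -0.08 for RPL3L minus RPL3. These were not tested either, and each of these paralogs was in the background range.

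RPL3L, the striated muscle copy of RPL3, was at 4.47 and 4.47 against 4.38 and 4.38 (log2 difference -0.09, interval -0.26 to 0.08). RPL10L, the germ cell copy of RPL10, was at 2.56 and 2.68 against 2.39 and 2.69 (-0.09, interval -0.39 to 0.22). Both lay in the background range, as did 8 of 9 muscle and 8 of 8 germ cell markers in control. Their parents RPL3, at the peptidyl transferase centre (8.043, 7.995 against 7.998, 8.023), and RPL10, which matures the subunit near the P site (7.65, 7.58 against 7.66, 7.65), had overlapping groups.

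Some relatives are not reached by the symbol rule. Of RPSA, FAU, GNB2L1 (now RACK1), RPL22L1, RPL26L1, RPL7L1 and RPL36AL, limma called 0 of 7. Of all genes 15.2% were called, and 28.2% of those at or above the median level. An unadjusted limma p under 0.05 was found for 2 of the 7 and for 7623 of all 25847 genes. The log2 differences of the 7 ran from -0.23 to 0.23. RPL22L1, the paralog of RPL22, had the highest difference of these 7 (0.23, limma adjusted p = 0.11), on a row in the background range in both groups.

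Other genes with TOP mRNAs, taken from a list, had 6 rises and 1 fall among 23, with a median of 0.10. All 23 lie at or above the median level of the array, where 18.2% of genes rose and 10.0% fell. TPT1, a growth-linked protein, differed by 0.87 (limma adjusted p = 0.0039), NAP1L1, a histone chaperone, by 0.90 (0.0041), IPO7, an importin for ribosomal proteins, by 0.71 (0.0057) and NACA, which binds nascent chains, by 0.66 (0.011). CCNI, a cyclin, fell by 0.64 on the log2 scale (limma adjusted p = 0.014). The elongation factors EEF1A1, EEF1G and EEF2 had control means of 18.42 or above and differed by at most 0.05.

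Of 19 genes listed as regulators of TOP mRNAs, most of them of the mTORC1 pathway, 4 rose and 3 fell (over genes at or above the median level 18.2% and 10.0%). SESN2, an inhibitor of the pathway, rose by 1.46 (limma adjusted p = 0.0020) and the S6 kinase gene RPS6KB1 by 0.57 (0.026). RPTOR, the scaffold of mTORC1, fell by 0.51 on the log2 scale (limma adjusted p = 0.020) and TSC2, a brake on the pathway, by 0.43 (0.021). LARP4, an RNA-binding protein that stabilises mRNAs, rose by 0.67 (limma adjusted p = 0.0086). Of the RSK kinase genes, RPS6KA3 rose by 0.36 (limma adjusted p = 0.034) and RPS6KA1 fell by 0.52 on the log2 scale (0.025). LARP1, the repressor that holds TOP mRNAs, differed by 0.16 (limma adjusted p = 0.22). Of 17 transcription and assembly factors of ribosomal proteins, all at or above the median level too, 3 rose and 1 fell, with MYC (0.48, limma adjusted p = 0.015) and NOB1, an endonuclease of small subunit maturation (0.47, 0.027), among the rises. The fall was HEATR3, an import factor of RPL5 (-0.66, limma adjusted p = 0.0070). Of 6 snoRNA host genes 1 rose and 1 fell (over genes at or above the median level 18.2% and 10.0%). SNHG1 rose by 0.46 (limma adjusted p = 0.020) and SNHG8 fell by 0.99 (0.0081).

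The proteins of mitochondrial ribosomes, encoded by 75 nuclear MRPL and MRPS genes, had 14 rises and 6 falls (26.7%) with a median log2 difference of 0.03. All 75 lie at or above the median level of the array, where 28.2% of genes were called. Annotated pseudogenes of ribosomal proteins, 36 in number, had 1 rise and 1 fall (over all genes 9.34% and 5.88%) and a median of 0.03, with 16 of them in the background range in control.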

How the data were processed

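The authors deposited a log2 level per probe set for each of 4 arrays, in a table named SST-RMA. RMA in Affymetrix Expression Console is listed per the submitters' processing notes, while the design description credits Affymetrix's Exon Array Computational Tool. Tool versions were not given in the sources used here, nor was what SST does to the scale. The other deposited log2 table did not differ at any of 70523 probe sets.

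Clusters with exactly 1 gene symbol were kept (33444), one per gene by the highest mean, dim genes included. The group difference was tested with limma (version 3.58.1, R version 4.3.3; lmFit and eBayes with no covariate, 2 residual and 3.19 prior degrees of freedom), two-sided, with Benjamini-Hochberg adjustment over all genes. Folds are on the array's log2 scale. Groups came from the sample titles. The number of arrays limits precision. The background range is a mean at or below the brightest background probe set (5.195 control, 4.95 ribavirin). Members, lists and the naming rule were chosen with earlier results of these data known. Named in full were called members, paralogs and parents, the 3 dimmest of each subunit, the stalk and 8 others picked for their roles. In simulated data over 25847 genes, limma recovered 1 of 50 genes changed 1.5-fold, 40 of 50 changed 2-fold and 47 of 50 changed 4-fold. Far fewer genes were changed there than the 3934 called in the real data. The cutoff on p was therefore stricter in the simulation, and its recovery does not carry over to the real fit. Promoter windows came from RefSeq, where 63 of 80 members matched.

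Alternatives were an intensity trend, robust moderation, quantile normalization anew, median centring, dim genes left out, clusters averaged, thresholds of 0.1 and 0.01, genes above 19 left out, the array number as a block, each array left out, and, chosen after seeing the data, the RefSeq row of each gene.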

Additional observations from a re-analysis of the deposited data

How the results depend on the processing

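Over all genes 3934 passed, between 26 and 2001 with 1 array left out and 1314 at an adjusted p under 0.01. Of the members, 8 rose and 1 fell. With dim genes left out the counts were 15 and 4 (large 10 and 3, small 4 and 1), and at an adjusted p under 0.1 likewise 15 and 4 (10 and 3, 4 and 1). At 0.01 they were 5 and 0, with small subunit rises at 1. Centred arrays gave 13 and 0 (small rises 4), quantile normalization 6 falls (large 4, small 1) and 1 small rise, and the RefSeq row, an alternative chosen after seeing the data, 5 rises (large 3). With 1 array left out the rises ran from 0 to 5 (large 0 to 4, small 0 to 1) and the falls were 0. The array number as a replicate block gave 0 falls and 1 small subunit rise, since RPL29 (limma adjusted p = 0.0522) and RPS13 (0.0609) were lost. Nothing in the labels pairs the arrays, and the deviations of replicate 1 from the group means correlated at 0.0514 between groups, across genes.

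The median over members was 0.0481, and was -0.0415 after quantile normalization, 0.113 centred and 0.00523 to 0.0644 with 1 array left out. The large subunit median was -0.0318 after quantile normalization, 0.156 centred, 0.0637 with clusters averaged, 0.0481 with RefSeq rows and 0.0520 to 0.0899 with 1 array left out. The small subunit median was -0.0919 after quantile normalization and 0.0938 centred. RPS27L, at 0.276, passed with an intensity trend, with dim genes left out and at 0.1, and at 0.314 and 0.340 after quantile normalization and centring. RPL39L passed after quantile normalization at -0.326. RPL10L ran from -0.235 to 0.0644 with 1 array left out.

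The sign turned after quantile normalization for RPL10 (-0.140), RPL23 (-0.0114), RPL34 (-0.0253), RPL39 (-0.0382) and RPLP0 (-0.0409). It turned with centred arrays for RPL3 (0.0557), RPL36A (0.0545), RPLP2 (0.0427), RPS14 (0.0411) and RPS27A (0.0163). With 1 array left out RPL3 ran from -0.0330 to 0.0152, RPL39 from -0.0246 to 0.240 and RPLP2 from -0.0704 to 0.0266. None of the values with a turned sign passed. The causes were not tested.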
